A study of Mus musculus with 18 samples.

Results

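The enzymes that crosslink collagen were followed in mouse fibroblasts as 10 genes: the lysyl oxidases Lox, Loxl1, Loxl2, Loxl3 and Loxl4, the lysyl hydroxylases Plod1, Plod2 and Plod3, the transglutaminase Tgm2 and the procollagen C-proteinase Bmp1. Every row of the deposited expression table whose gene symbol is on this list was taken, which gave 10 of 22019 genes. All 10 passed the filter on low values, which kept 16021 genes that lay above the lowest value of the table in at least 3 of the 18 libraries. The measure was messenger RNA as a normalized signal per gene, on a linear scale that is not divided by gene length.

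Collagen fibres get their strength outside the cell. Inside the endoplasmic reticulum the PLOD enzymes add hydroxyl groups to lysines of the new collagen chain, outside BMP1 cuts off its C-terminal propeptide, and the copper-dependent lysyl oxidases then oxidize lysines and hydroxylysines to aldehydes that react into crosslinks between molecules. Transglutaminase 2 forms a different bond, between glutamine and lysine side chains, and fibronectin is among its substrates. Fibroblasts are the main makers of these enzymes in connective tissue, and crosslinking stiffens the matrix that the cells in turn pull on.

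The cells were NIH 3T3, an established line of mouse embryonic fibroblasts, that carry a TetON transactivator and were given 1 μg/ml doxycycline for 48 hr in every group. Doxycycline induced either SS-GFP-KDEL, a green fluorescent protein kept in the endoplasmic reticulum that served as control (KDEL), or SS-HA-Sun1L-KDEL, the lumenal part of SUN1 (SUN1L), which displaces the LINC complex that couples the cytoskeleton to the nucleus. Both lines were made by retroviral transduction and puromycin selection, and the methods name enrichment by fluorescence sorting for the KDEL line alone, so that a difference between SUN1L and KDEL cells cannot be told apart from a difference between the 2 lines. The cells grew on polyacrylamide gels coated with fibronectin. Named by the laboratory's serial numbers, the libraries were 4, 16 and 28 for KDEL cells on 1 kPa (soft), 8, 20 and 32 for KDEL cells on 308 kPa (stiff), 3, 15 and 27 for SUN1L cells on 1 kPa, and 7, 19 and 31 for SUN1L cells on 308 kPa. KDEL cells on 308 kPa with 25 μM Y27632 (Y27), an inhibitor of cell contractility, gave libraries 12, 24 and 36, and cells on 308 kPa with 10 μM blebbistatin, an inhibitor of myosin II, gave libraries 10, 22 and 34; of these, 10 and 22 are of KDEL cells and 34 is given as empty vector. The methods call the 3 libraries of a group biological replicates, of which the labels give no number or culture, and the p-values measure the spread between them.

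Some libraries stood apart before any comparison. Ordered by serial number they form 3 runs, the first with libraries 3 to 12, the second with 15 to 24 and the third with 27 to 36. Each run holds 1 library of each group, and the labels do not say that a run is a day or a batch. Library 34 carries labels that contradict each other: its inhibition label is blebbistatin, while its source name is empty vector with Y27, and its column in the table is headed the same way. It was placed with blebbistatin by the inhibition label. For some genes and lists, the log2 fold changes or medians with blebbistatin are given with and without library 34. Counts over the 3 runs and fits with the runs as a block include it. Libraries 3, 7 and 8, all of the first run and of SUN1L on 1 kPa, SUN1L on 308 kPa and KDEL on 308 kPa, had a mean log2 level of 16 mitosis genes of 8.65 to 9.27, against 11.56 to 12.34 in the other 15. In the comparisons that follow, a library in doubt was left out with its whole run, so that every other library kept its partner of the run: the third run for library 34, and the first for libraries 3, 7 and 8. Sun1 itself, which the SUN1L construct adds to, read 38452 to 82617 in the 6 SUN1L libraries and 2785 to 3799 in the other 12. All 9 fibroblast markers had a median signal of at least 100, from Thy1 at 3386 to Fn1 at 330641. Of the markers of other cell types, Epcam, Emr1, Myod1 and Adipoq had a median of 1, the lowest value of the table, while Tek (486), Des (292), Cdh1 (168) and Cd68 (145) did not. The libraries held about 12670000 to 19460000 read pairs by the step between their lowest values, and 1 read pair was worth 1.70 to 2.49 units of signal.

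Lox, which oxidizes lysines in collagen and elastin, was by far the most abundant of the 10. Divided by the length of the exons of each gene in kilobases, its median signal over the 18 libraries was 9434 per kilobase. Next in this order were Loxl1, a lysyl oxidase tied to elastic fibres (1983 per kilobase), Loxl3 (1463), Plod3, which also carries glycosyltransferase activity (1441), Bmp1 (686), Tgm2 (581), Plod2, the hydroxylase of collagen telopeptides (566), Plod1, which acts on the helical part of the chain (441), Loxl4 (375) and Loxl2 (12.9). Lox lay above Loxl1 in 18 of 18 libraries, Plod3 above Bmp1 in 18 of 18 and Loxl4 above Loxl2 in 18 of 18. The other neighbours changed places in some libraries. Loxl1 lay above Loxl3 in 15 of 18, Bmp1 above Tgm2 in 15 of 18 and Plod2 above Plod1 in 17 of 18, while Plod1 lay above Loxl4 in 11, Loxl3 above Plod3 in 10 and Tgm2 above Plod2 in 9. These lengths come from an annotation of NCBIM37, which may not be the set of exons the authors counted. Loxl2 read 22.5 to 221 units of signal, while the lowest value of any other member was 1011 units, for Loxl4.

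In the GRCm38 positions of the deposited table, the 10 genes lie on 8 chromosomes, and none overlaps another. Lox is on chr18:52516069-52529867 (minus strand), Loxl1 on chr9:58287723-58313212 (minus), Loxl3 on chr6:83034173-83052562 (plus) and Plod1 on chr4:147909753-147936767 (minus). Loxl2 on chr14:69609068-69695834 (plus) and Bmp1 on chr14:70474557-70520260 (minus) share a chromosome, as do Loxl1 and Plod2, at chr9:92542223-92608428 (plus). Loxl4 is on chr19:42593982-42612813 (minus), Plod3 on chr5:136987019-136996648 (plus) and Tgm2 on chr2:158116402-158146436 (minus).

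None of the 10 genes was called in any of the 10 comparisons, where a call needs a Benjamini-Hochberg adjusted p under 0.05 in limma and at least a 2-fold difference, or for the interaction a Bonferroni-corrected p under 0.05. Over all 16021 genes the calls were few too. They made up 0.0874% of the genes for SUN1L against KDEL on 1 kPa, 0.0624% on 308 kPa and 0.181% over both rigidities, and 0% in the other comparisons. At an unadjusted p under 0.05 Lox with Y27 was the 1 member to pass in any comparison. The share of all genes that passed there was 4.54% for SUN1L on 1 kPa, 2.53% for SUN1L on 308 kPa, 6.8% for SUN1L over both rigidities, 1.37% for rigidity in KDEL cells, 1.93% for rigidity in SUN1L cells, 2.91% for rigidity over both constructs, 0.905% for the interaction, 6.05% for Y27, 4.21% for blebbistatin and 2.83% for Y27 against blebbistatin. A test of proportions run on group sums, which ignores the spread between libraries, gave members much smaller p-values but called none either, since none differed by 2-fold. Several differences nevertheless recurred from run to run, and a fit with the runs as a block measured them against a smaller error.

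**Figure D1:**
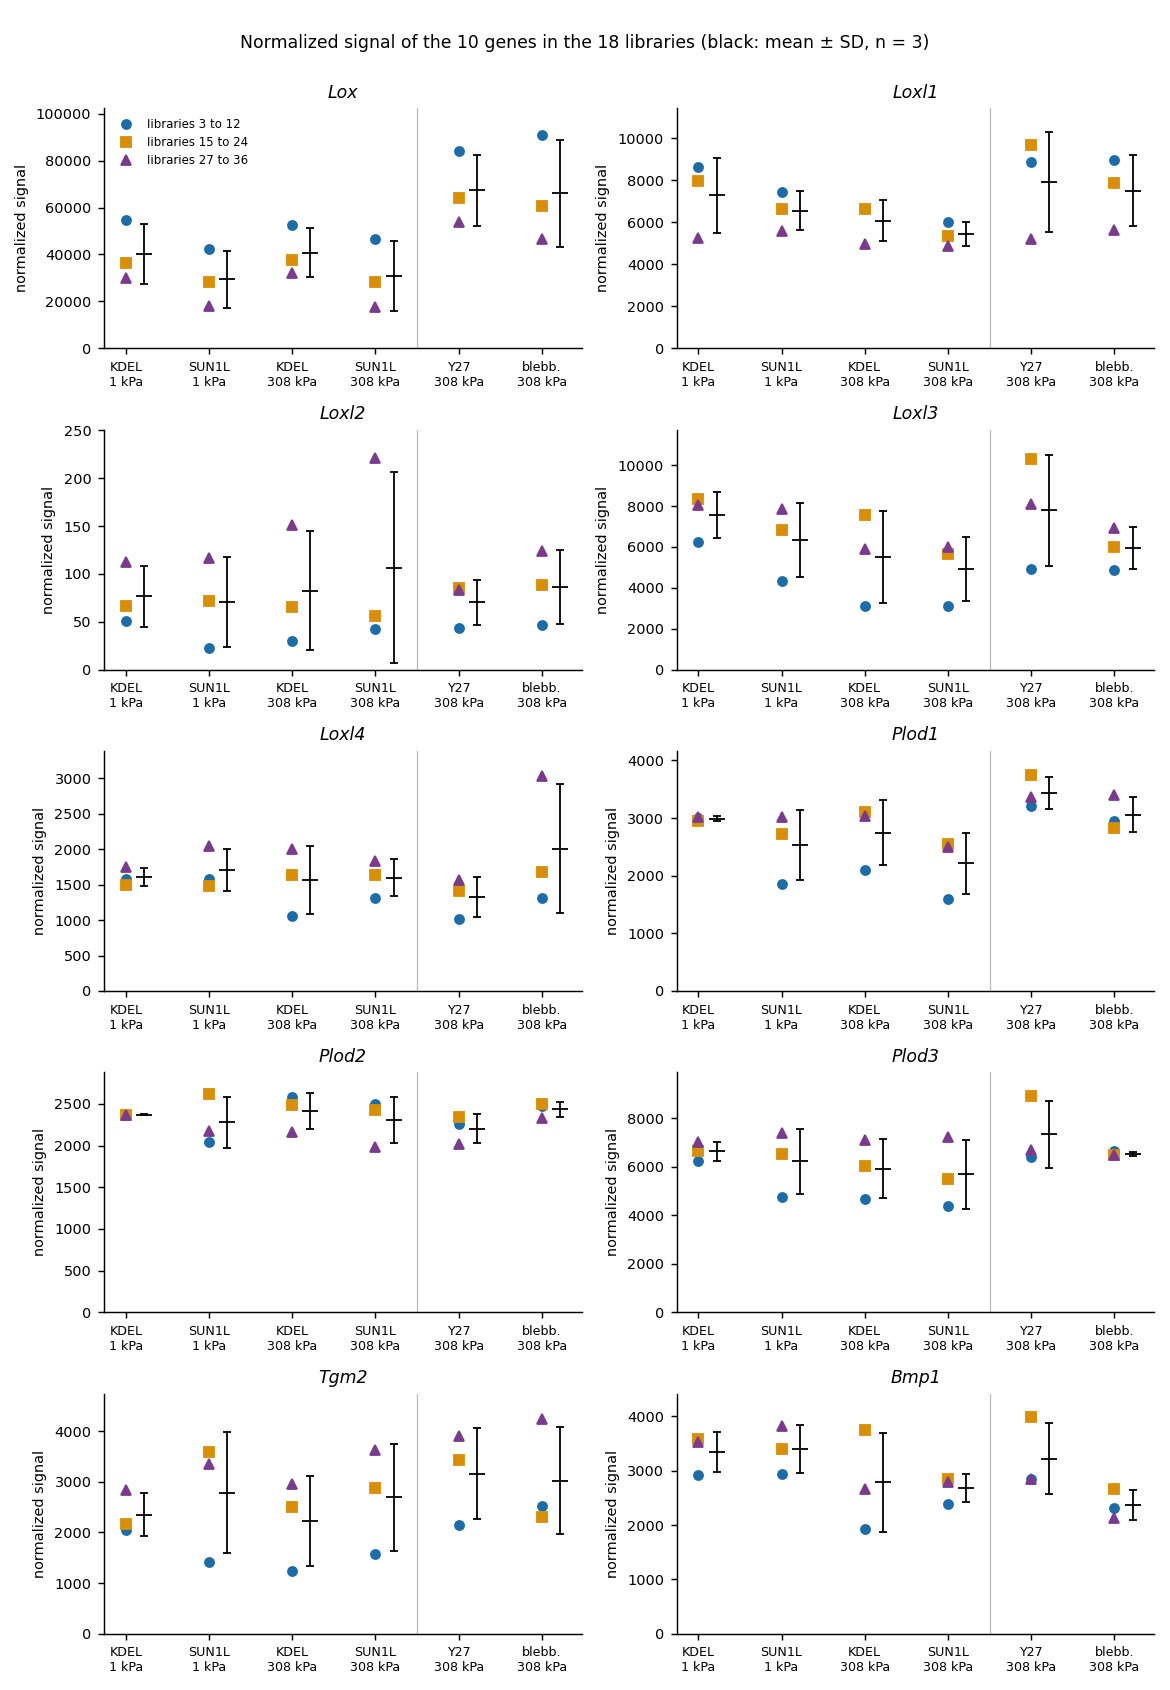
Normalized signal (linear axis from 0) of each of the 10 genes in the 18 libraries by group, with the run of serial numbers as colour and shape, and the mean ± SD of the 3 libraries of a group in black. In the panel of Lox the first run lies above the second and the second above the third in all 6 groups, and the inhibited cells lie above the untreated cells of their run.

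The first question was whether displacing the LINC complex alters these enzymes. Lox was lower in SUN1L than in KDEL cells in every run. On 1 kPa it read 54512, 36230 and 29957 in KDEL libraries 4, 16 and 28, and 42162, 28097 and 17953 in SUN1L libraries 3, 15 and 27. On 308 kPa it read 52393, 37730 and 32287 in KDEL libraries 8, 20 and 32, and 46701, 28362 and 17472 in SUN1L libraries 7, 19 and 31. The groups overlap on both gels, because the values of each group span the runs, but within a run SUN1L was below KDEL in 6 of 6 pairs, by -45.9% to -10.9%. Lox was the 1 member lower in all 6 pairs, and none was higher. Among all tested genes 7.27% were lower in all 6 pairs and 4.06% higher. The log2 fold change over both rigidities was -0.49 (SE 0.29, 95% interval -1.13 to 0.15, limma adjusted p = 0.832), that is 0.712-fold. With the runs as a block the SE was 0.10 and the adjusted p 0.0876. In a fit of all 18 libraries with this block, chosen after the data were seen, the adjusted p was 0.0382, still without a 2-fold difference; over all alternatives it ran from 0.0382 to 1. With the block Lox and Plod1 had an unadjusted p under 0.05, both lower, where 15.7% of all genes passed and 8.67% were lower. Without the first run the log2 fold change was -0.60.

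Lox differed by similar amounts on both gels. The log2 difference between SUN1L and KDEL cells was -0.49 on 1 kPa and -0.49 on 308 kPa. The interaction in limma was 0.0042 (SE 0.58, 95% interval -1.27 to 1.28), which did not pass. The wide interval does not show that the 2 differences are equal.

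Of the other lysyl oxidases, Loxl1 was lower in SUN1L cells in 5 of 6 pairs, with a log2 fold change over both rigidities of -0.14 (SE 0.14). Loxl3 was lower in 4 of 6 pairs, and its value of -0.21 (SE 0.25) came to -0.18 without the first run. Loxl4 and the scarce Loxl2 were each higher in 4 of 6 pairs, at 0.07 (SE 0.16) and -0.03 (SE 0.56), so that for Loxl2 the fit over libraries and the count of pairs point to different sides. Plod1 was lower in 5 of 6 pairs. It read 1854, 2721 and 3019 in SUN1L cells on 1 kPa against 3010, 2945 and 3015 in KDEL cells, and 1598, 2543 and 2501 against 2105, 3103 and 3041 on 308 kPa. Its lowest values were those of the first run, where library 3 differed from library 4 by -38.4%, while library 27 differed from library 28 by 0.114%. The log2 fold change of Plod1 was -0.30 (SE 0.16, adjusted p = 0.810), and -0.17 without the first run. Plod2 (-0.07, SE 0.09), Plod3 (-0.09, SE 0.16) and Bmp1 (0.01, SE 0.15) were within 1 SE of no difference. Tgm2 was higher in SUN1L cells in 5 of 6 pairs (0.21, SE 0.31) and, on 308 kPa, in 3 of 3, by 14.6% to 26.3%, as were 10% of all genes. Its log2 fold change was 0.37 without the first run. Its exception was the first run on 1 kPa, with 1411 in library 3 and 2043 in library 4. Over the 10 genes the median log2 fold change was -0.08, beside -0.02 over all tested genes, and 7 of 10 were lower; without the first run the median was -0.05 and 7 of 10 were lower. No member's SUN1L and KDEL groups were apart on either gel, where 14.5% of all genes had groups apart on 1 kPa and 4.29% on 308 kPa. In a bulk library fewer cells of a kind and less RNA per cell cannot be told apart.

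**Figure D2:**
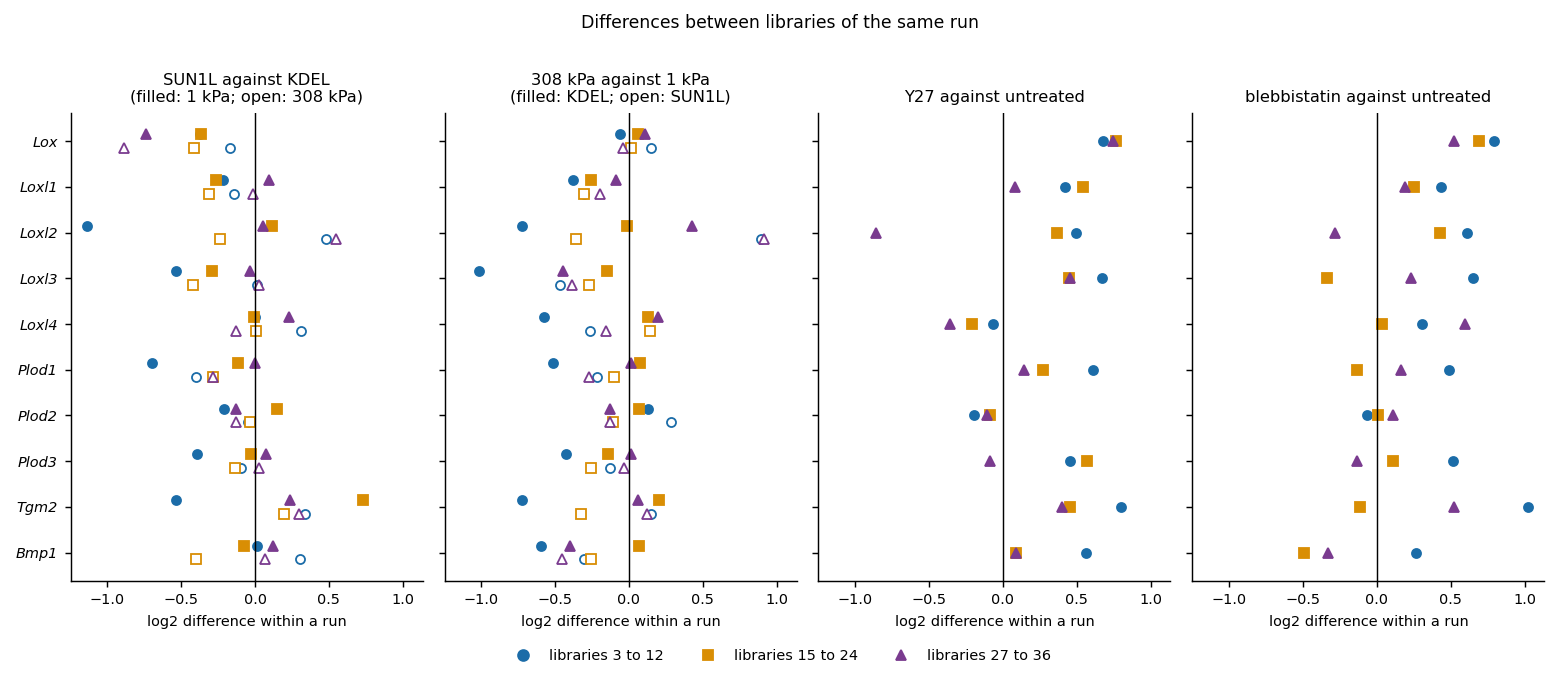
Difference in log2 signal between 2 libraries of the same run (x axis) for each gene (y axis) in 4 contrasts, where colour and shape give the run and filled or open symbols the gel or the construct. Lox lies left of 0 in 6 of 6 pairs of SUN1L with KDEL and right of 0 in 3 of 3 pairs for each inhibitor, and Loxl1 and Loxl3 lie left of 0 in 6 of 6 pairs of 308 kPa with 1 kPa.

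The second question was whether the rigidity of the gel alters them. For Lox no difference was found: the stiff gel was above the soft one in 4 of 6 pairs and the log2 difference was 0.04 (SE 0.29, 95% interval -0.60 to 0.67). An interval this wide does not show that rigidity leaves Lox unchanged. Loxl3, a lysyl oxidase with scavenger receptor domains, was lower on 308 kPa in 6 of 6 pairs. In KDEL cells it read 6261, 8364 and 8063 on 1 kPa and 3102, 7563 and 5910 on 308 kPa, and in SUN1L cells 4323, 6824 and 7865 on 1 kPa and 3130, 5650 and 6019 on 308 kPa. The difference was largest between libraries 4 and 8, at -50.4%, and smallest between libraries 16 and 20, at -9.58%. Loxl1 was lower on 308 kPa in 6 of 6 pairs as well. It read 8624, 7937 and 5248 on 1 kPa against 6633, 6633 and 4938 on 308 kPa in KDEL cells, and 7426, 6609 and 5602 against 6022, 5343 and 4885 in SUN1L cells. These differences ran from -23.1% to -5.90%. Loxl1 and Loxl3 were the 2 members lower in all 6 pairs, and none was higher. Of all tested genes 4.08% were lower on the stiff gel in all 6 pairs, and 2.53% higher.

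In the fit over both constructs the log2 fold change from 1 kPa to 308 kPa was -0.46 for Loxl3 (SE 0.25) and -0.26 for Loxl1 (SE 0.14), each with a limma adjusted p of 1. With the runs as a block the limma unadjusted p was 0.00193 for Loxl3 and 0.00484 for Loxl1, and the adjusted p was 0.406 and 0.424. Over all alternatives the adjusted p ran from 0.283 to 1 for Loxl3 and from 0.361 to 1 for Loxl1. Without the first run the log2 fold change was -0.31 for Loxl3 and -0.21 for Loxl1.

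Bmp1 was lower on 308 kPa in 5 of 6 pairs. In SUN1L cells it read 2946, 3406 and 3829 on 1 kPa and 2389, 2851 and 2799 on 308 kPa, and the groups did not overlap. This was the 1 member of 10 whose groups were apart in a comparison of rigidities; the share over all genes was 4.77% there, with 3.08% lower on the stiff gel, and 4.78% in KDEL cells. In KDEL cells it read 2917, 3586 and 3523 against 1932, 3755 and 2669, with library 20 above library 16. Over both constructs the log2 fold change of Bmp1 was -0.32 (SE 0.15, 95% interval -0.65 to 0.01, adjusted p = 1). Plod3 was lower on the stiff gel in 5 of 6 pairs (-0.16, SE 0.16) and Plod1 in 4 of 6 (-0.17, SE 0.16). For Plod2 (0.02, SE 0.09), Tgm2 (-0.09, SE 0.31), Loxl4 (-0.09, SE 0.16) and Loxl2 (0.19, SE 0.56) the pairs pointed both ways, and the SE exceeded the difference. The median over the 10 genes was -0.12, with 7 of 10 lower, against -0.01 over all tested genes. Leaving out the first run gave a median of -0.07, with 6 of 10 lower. Plod1 then came to -0.07 and Plod3 to -0.10. With the runs as a block Loxl1, Loxl3 and Bmp1 had an unadjusted p under 0.05, all 3 lower on the stiff gel, where 8.7% of all genes passed and 5.65% were lower. No member came near an interaction of SUN1L with rigidity: the lowest unadjusted p in limma was 0.608, for Loxl2.

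**Figure D3:**
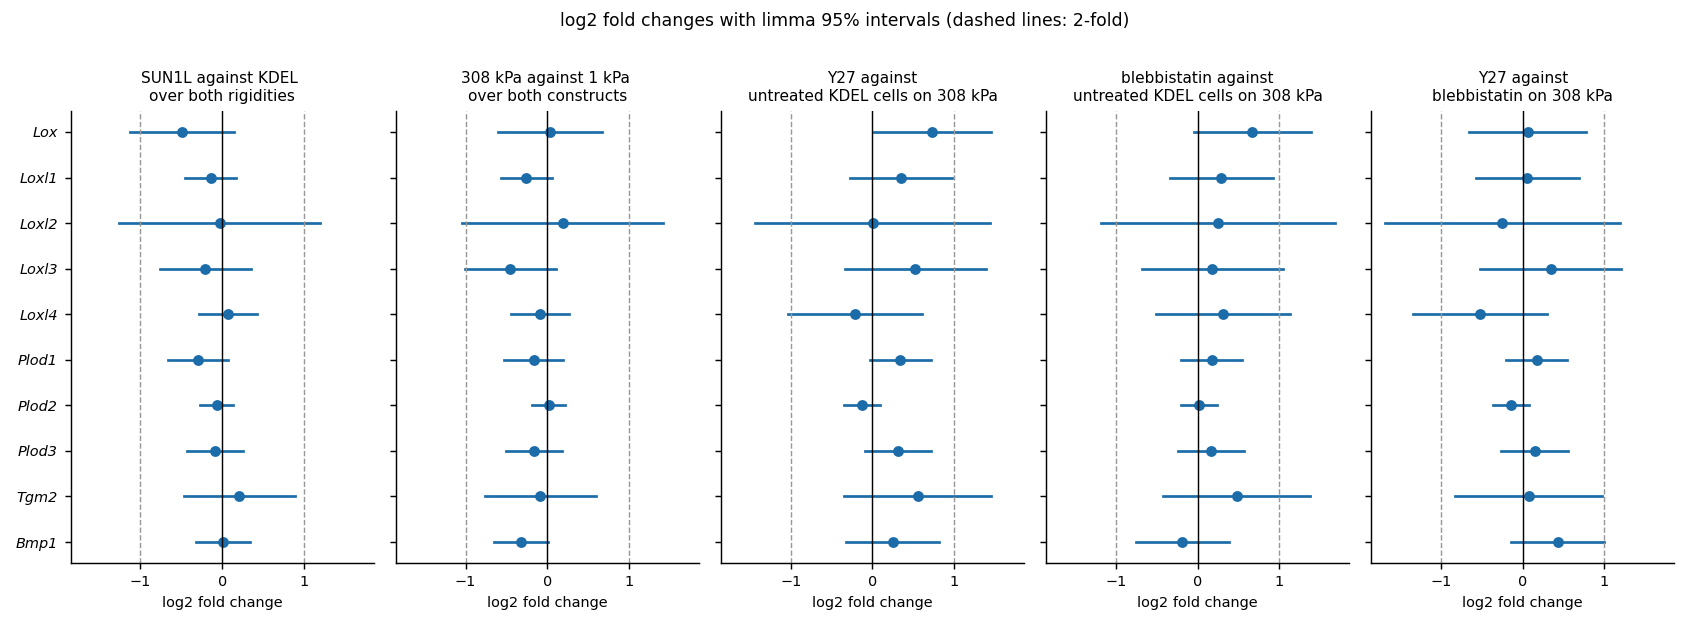
log2 fold change of each gene (points) with its 95% interval from limma (lines) in 5 comparisons, with dashed lines at a 2-fold difference in either direction. All points lie within 2-fold, and of the 50 intervals only that of Lox with Y27, 0.01 to 1.44, leaves out 0.

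The third question was whether the inhibitors of contractility alter these enzymes on the stiff gel. Both inhibitors are compared with the same 3 untreated KDEL libraries 8, 20 and 32, so that their differences share these controls. Lox read 83907, 64203 and 53994 with Y27 in libraries 12, 24 and 36, above all 3 untreated libraries at 52393, 37730 and 32287. With blebbistatin it read 90990 and 60875 in libraries 10 and 22 and 46464 in library 34, which lay below the highest untreated library. Against the untreated library of its own run Lox was 1.60-fold to 1.70-fold higher with Y27 and 1.44-fold to 1.74-fold higher with blebbistatin. The log2 fold change with Y27 was 0.73 (SE 0.31, 95% interval 0.01 to 1.44, unadjusted p = 0.0466 and limma adjusted p = 0.789). Of all genes 3.69% were higher with Y27 at an unadjusted p under 0.05. With the runs as a block the SE was 0.12 and the adjusted p 0.379. In the fit of all 18 libraries with the block it was 0.0497, without a 2-fold difference. Over all alternatives it ran from 0, in the test of proportions on group sums, to 1.

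With blebbistatin the log2 fold change of Lox was 0.67 (SE 0.31, 95% interval -0.05 to 1.39, adjusted p = 0.890). It was 0.74 without the third run and its library 34, and with library 34 counted among the Y27 libraries that of Y27 was 0.60. The direct difference between Y27 and blebbistatin was 0.06 (SE 0.31, 95% interval -0.66 to 0.77) for Lox and came to -0.02 without the third run. An interval of this width does not show that the inhibitors act alike. Y27632 and blebbistatin are unrelated in structure and were each used at 1 dose.

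Lox stood in the same order in each of the 3 runs: both inhibited libraries above both untreated KDEL libraries, and these above both SUN1L libraries. Of the 16021 tested genes 0.256% had this order in every run and 0.0562% its reverse, and Lox was the 1 member among them. The order was noticed in the data and is given as a description.

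Loxl1 and Loxl3 were higher with Y27 in 3 of 3 pairs. Loxl1 read 8868, 9682 and 5222 with Y27, 8952, 7882 and 5646 with blebbistatin and 6633, 6633 and 4938 without, which is 0.35 (SE 0.27) with Y27 and 0.29 (SE 0.27) with blebbistatin on the log2 scale. Loxl3 read 4937, 10322 and 8101 with Y27, 36.5% to 59.1% above the untreated library of the run. With blebbistatin it read 4871, 5990 and 6930, higher in 2 of 3 pairs. The log2 fold changes of Loxl3 were 0.52 (SE 0.37) with Y27 and 0.18 (SE 0.37) with blebbistatin, and without the first run they came to 0.45 and -0.05. Loxl4, which like Loxl2 and Loxl3 carries scavenger receptor domains, was lower with Y27 and higher with blebbistatin in each run: 1011, 1411 and 1562 with Y27, 1307, 1674 and 3032 with blebbistatin, and 1059, 1633 and 2004 without. The highest of these is library 34. Between the inhibitors the log2 difference was -0.52 (SE 0.35, adjusted p = 1), and -0.31 without the third run.

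Plod1 was higher with Y27 without overlap, at 3216, 3748 and 3358 against 2105, 3103 and 3041 untreated. Lox and Plod1 were the 2 members of 10 whose Y27 and untreated groups were apart; over all genes this share was 8.57%, and 4.95% with Y27 higher. The log2 fold change of Plod1 was 0.34 (SE 0.16, adjusted p = 0.789), and 0.21 without the first run. With blebbistatin Plod1 read 2956, 2825 and 3406 (0.17, SE 0.16), and its log2 fold change was 0.01 without the first run. Plod3 was higher with Y27 in 2 of 3 pairs (0.31, SE 0.18), and Plod2 lower in 3 of 3, by -12.6% to -5.96% (-0.13, SE 0.10). In all, 6 members were higher with Y27 in each of the 3 runs (Lox, Loxl1, Loxl3, Plod1, Tgm2 and Bmp1), where 14% of all genes were, and 2 were lower (Loxl4 and Plod2), where 11.3% were. With blebbistatin 3 members were higher in each run (Lox, Loxl1 and Loxl4), where 14.5% of all genes were. Tgm2 read 2154, 3431 and 3898 with Y27 and 2521, 2310 and 4235 with blebbistatin, against 1238, 2503 and 2955 untreated. Its log2 fold changes were 0.55 (SE 0.39) and 0.48 (SE 0.39), and without the first run they were 0.43 and 0.20. Without the third run and its library 34 the log2 fold change with blebbistatin was 0.45 for Tgm2, 0.34 for Loxl1, 0.16 for Loxl3, 0.18 for Plod1 and 0.17 for Loxl4. For the scarce Loxl2 it was 0.52, and 0.25 with all runs. For blebbistatin no member's groups were apart, where 7.22% of all genes had groups apart.

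Bmp1 was higher with Y27 than with blebbistatin in each run. It read 2849, 3985 and 2839 with Y27 and 2321, 2672 and 2125 with blebbistatin, without overlap, where 9.64% of all genes had none; against the untreated 1932, 3755 and 2669 both groups overlapped. Of all genes 5.39% had no overlap and were higher with Y27. The log2 difference of Y27 from blebbistatin was 0.43 (SE 0.25, 95% interval -0.14 to 1.00, adjusted p = 1), and 0.44 without the third run. Bmp1 and Loxl3 were the 2 members higher with Y27 than with blebbistatin in each run, where 17.2% of all genes were, and Loxl2, Loxl4 and Plod2 the 3 that were lower, where 14.4% were. With the runs as a block Loxl4 and Bmp1 had an unadjusted p under 0.05 between the inhibitors, where 5.17% of all genes did. Over the 10 genes the median log2 fold change was 0.33 with Y27 and 0.22 with blebbistatin, beside 0.01 and 0.00 over all tested genes, and 8 and 9 of the 10 genes were higher. Without the first run the medians were 0.22 and 0.06, with 7 of 10 higher for each, and without the third run that of blebbistatin was 0.24, with 8 of 10 higher. With the runs as a block 5 members passed an unadjusted p of 0.05 for Y27 (Lox, Loxl1, Loxl3, Plod1 and Tgm2, all higher), where 10.5% of all genes did and 6.29% were higher. For blebbistatin 2 members passed (Lox and Loxl1, both higher), where 7.57% of all genes did and 3.68% were higher.

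For 7 of the 10 genes more of the variance lay between the runs than between the 6 groups, and for Lox, Plod1 and Bmp1 less. How often this holds over all genes is not given. The shares of the variance are not scaled by the number of groups and runs, and 6 groups take up more than 3 runs where nothing differs. Over all tested genes the median share between groups was 27.8%. The share of the variance of log2 signal between the 3 runs was 79.2% for Loxl2, 66.0% for Tgm2, 59.0% for Loxl3, 57.6% for Loxl1 and 55.1% for Loxl4, beside a median of 29.0% over all tested genes. Of all tested genes 22.4% had at least 50% of their variance between runs. For Lox the share between runs was 37.7%, with 59.0% between the 6 groups and 3.32% left over. For Plod1 it was 27.7%, with 50.4% between groups, and for Bmp1 32.3%, with 44.0%. Lox was higher in the first run than in the third in all 6 groups, 1.55-fold with Y27 to 2.67-fold in SUN1L cells on 308 kPa, and the second run lay between them each time. Of all tested genes 1.24% had this order of the runs in every group, and Lox was the 1 member. Loxl2 went the other way, 3.33-fold higher in the third run than in the first on average, and Tgm2 1.95-fold higher. Plod2 was the steadiest of the 10, with an SD of log2 signal over the 18 libraries of 0.12, against 0.82 for Loxl2. The runs have no known order in treatment, and what differed between them was not tested.

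**Figure D4:**
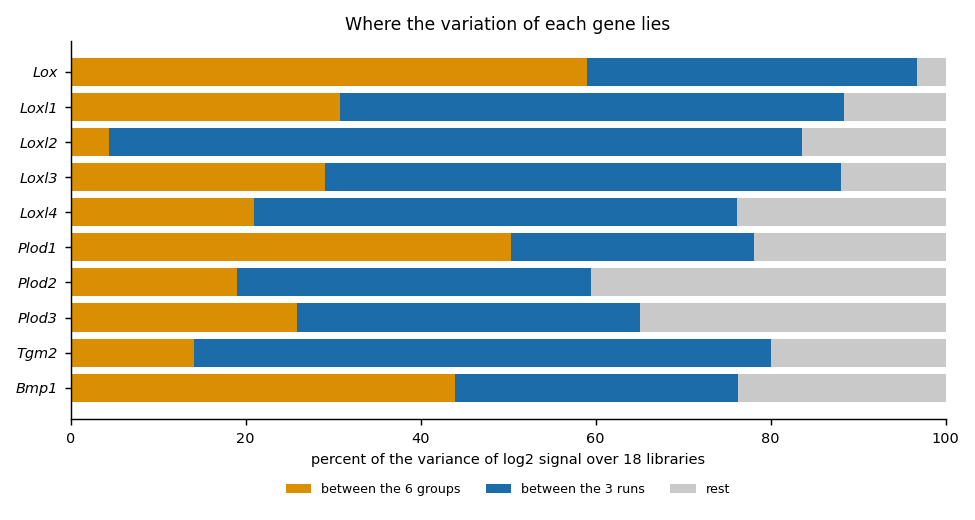
Percent of the variance of log2 signal over the 18 libraries (x axis, stacked to 100) that lies between the 6 groups, between the 3 runs and in the rest, for each gene. Lox has the smallest rest, 3.32%, and Loxl2 the largest share between runs, 79.2%.

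Loxl2, Loxl3, Plod1, Plod3 and Tgm2 had their lowest values in the libraries with a low level of mitosis genes. In libraries 3, 7 and 8 Plod1 was at most 2105, against at least 2501 in the other 15 libraries. Plod3 was at most 4753 against at least 5472, and Tgm2 at most 1564 against at least 2043. Loxl3 was at most 4323 against at least 4871, and Loxl2 at most 42.6 against at least 43.1. These 2 values of Loxl2 lie closer than the 1.70 units that 1 read pair was worth at the least. Its next lowest signals, 43.1, 46.7 and 50.7, were in libraries 12, 10 and 4, also of the first run. With Loxl2 counted, 5 of 10 members and 12.9% of all tested genes lay below all others in libraries 3, 7 and 8. For 0 members and 8.8% of all genes the highest values were there. Lox read 42162, 46701 and 52393 in these libraries, within the range of the others. As 2 of these libraries are of SUN1L cells and 2 are on 308 kPa, the low values of the first run enter each comparison above but that between the inhibitors, and the part of the mitosis level in the differences was not tested.

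**Figure D5:**
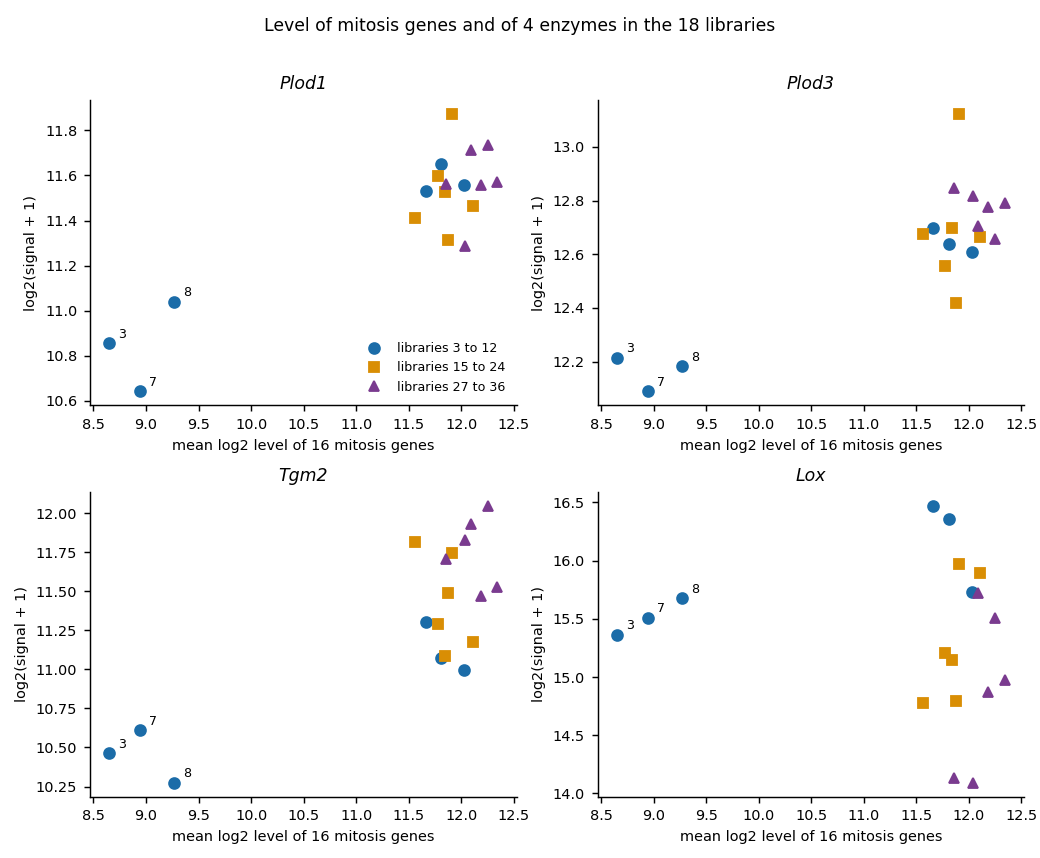
log2(signal + 1) of Plod1, Plod3, Tgm2 and Lox (y axes) against the mean log2 level of 16 mitosis genes (x axes) in the 18 libraries, coloured by run, with libraries 3, 7 and 8 numbered. These 3 libraries, at 8.65 to 9.27 on the x axis, hold the lowest values of Plod1, Plod3 and Tgm2 but not of Lox.

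The other genes of collagen assembly give the setting. Of 15 genes that modify and fold collagen, such as prolyl hydroxylases and the chaperone Serpinh1, none was called in any comparison. The 15 include Leprel1 and Colgalt2, whose median signals of 3.55 and 1 lay at or near the lowest value of the table. With Y27, 14 of 15 were higher, with a median log2 fold change of 0.40, and 8 of 15 passed an unadjusted p of 0.05 in limma. Over all tested genes 52.3% were higher and 6.05% passed. The smallest p was that of Leprel4, a member of the prolyl 3-hydroxylase family without its catalytic activity, at 7148 ± 1076 (SD, n = 3) with Y27 against 5076 ± 419 (0.49, SE 0.13, limma adjusted p = 0.707). With blebbistatin 13 of 15 were higher, with a median of 0.20, and Serpinh1 alone passed an unadjusted p of 0.05, at 21402 ± 1317 against 16076 ± 1341 (0.41, SE 0.16). In SUN1L cells 13 of 15 were lower over both rigidities, with a median of -0.15, and none passed an unadjusted p of 0.05. On the stiff gel 12 of 15 were lower, with a median of -0.10, and Leprel2, a prolyl 3-hydroxylase, passed (-0.26, SE 0.11). Over all tested genes 4.21% passed with blebbistatin, 6.8% in SUN1L cells and 2.91% on the stiff gel. The shares of all genes that were higher in these 3 comparisons were 51.1%, 45.4% and 45.7%. Without the first run 11 of 15 were higher with Y27 (median 0.30) and 9 of 15 with blebbistatin (0.05), while 10 of 15 were lower in SUN1L cells (-0.07) and 7 of 15 on the stiff gel (0.01). Without the third run and its library 34 the median with blebbistatin was 0.34, with 13 of 15 higher, and Serpinh1 was at 0.53.

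Of 10 substrates of the crosslinking, among them fibrillar collagens, elastin and fibronectin, none was called, and 3 passed an unadjusted p of 0.05 with Y27, 1 with blebbistatin, 1 in SUN1L cells and 1 on the stiff gel. The shares over all genes were 6.05%, 4.21%, 6.8% and 2.91%. Elastin (Eln) counts among the 10 but read only 1 to 17.7 units, with a median of 2.22, near the lowest value. With Y27 9 of 10 were higher, with a median log2 fold change of 0.74; Col1a1, a chain of type I collagen, read 112198 ± 9766 against 59059 ± 21035 untreated (0.98, SE 0.28, adjusted p = 0.707) and 93989 ± 15377 with blebbistatin (0.71, SE 0.28). In SUN1L cells 7 of 10 were lower over both rigidities; Col5a2, a chain of type V collagen, had the smallest p (-0.53, SE 0.14, adjusted p = 0.385). On the stiff gel 9 of 10 were lower, with a median of -0.20. There the smallest p was that of Col2a1, the collagen of cartilage, which lay at 1 to 68.9 units (-1.34, SE 0.40, adjusted p = 1). With the first run left out, 9 of 10 substrates were higher with Y27, 5 of 10 lower in SUN1L cells and 10 of 10 lower on the stiff gel. With blebbistatin 8 of 10 substrates were higher, with a median of 0.25. Without the third run 7 of 10 were higher with blebbistatin, with a median of 0.12, and Col1a1 was at 0.90.

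Of 10 genes that cut propeptides or help the enzymes, 9 were tested and none was called, while 3 passed an unadjusted p of 0.05 with Y27, 2 with blebbistatin, 2 in SUN1L cells and 1 on the stiff gel, beside 6.05%, 4.21%, 6.8% and 2.91% of all genes. Tll1, a relative of Bmp1, was at the lowest value in all libraries and Tll2 reached 2.16 units at most. Fbln5, a fibulin that binds Loxl1 in elastic fibres, was the gene with the smallest p in SUN1L cells (-0.82, SE 0.28, adjusted p = 0.605), at 4594 ± 1859 against 8471 ± 2108 on 1 kPa. Adamts2, which cuts the N-terminal propeptide, read 5013 ± 1097 with blebbistatin against 3290 ± 111 (0.59, SE 0.17, adjusted p = 0.890), and its log2 fold change was 0.74 without the third run. Adamts3 had the smallest p with Y27 (-1.55, SE 0.32, adjusted p = 0.624), at levels of 1.47 to 14.1 units that rest on a few read pairs. The 7 other transglutaminases reached 30.0 units at most, and 0 of the 6 tested were called. At an unadjusted p under 0.05 in limma 2 of 6 passed for Y27 and 2 for blebbistatin, and at most 1 in any other comparison. Of all genes 6.05% passed for Y27 and 4.21% for blebbistatin. The smallest p for both inhibitors was that of Tgm5, whose median signal of 1 is the lowest value of the table. The 3 genes of copper supply, Atp7a, Slc31a1 and Atox1, had median log2 fold changes from -0.12 to 0.15 over the 10 comparisons. None of them was called or had an unadjusted p under 0.05 in the limma fit without the block. With the runs as a block 1 of the 3 passed for SUN1L on 1 kPa, for SUN1L over both rigidities and for Y27. Of all genes 14.1%, 15.7% and 10.5% passed there.

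Among the genes whose log2 signal was most like that of Lox over the 18 libraries were, of 10591 with a mean of at least 100, Svep1 (Pearson r = 0.93), Pak3 (0.91), Pkd2 (0.91) and Col4a5 (0.90). For Tgm2 they were Klk10 (0.95), Itga6 (0.93), Dkk2 (0.92), Metrn (0.92) and Tesk2 (0.92). The libraries share runs and groups, and these 9 genes had 33.1% to 79.0% of their variance between runs, so the likeness is a description. Among the 10 enzymes themselves, Plod1 and Plod3 (r = 0.85), Loxl3 and Plod3 (0.84) and Loxl3 and Plod1 (0.82) were the closest pairs, and Lox and Loxl1 were at 0.72. After the mean of each run was taken out, Loxl1 and Plod3 were the closest (0.87), Plod1 and Plod3 were at 0.79, Lox and Plod1 at 0.67 and Lox and Loxl1 at 0.58.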

How the data were processed

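RNA from the 18 libraries was sequenced in pairs. The authors aligned the reads with TopHat2 (version 2.0), with mm9 as the named build although the gene positions in the table are those of GRCm38. They filtered reads by quality, alignment, mates and duplicates, normalized by the trimmed mean of M values and deposited 1 normalized signal per gene and library, whose lowest value is 1. Signal was converted to log2(signal + 1) and 16021 of 22019 genes, those above 1 in at least 3 libraries, were tested by limma 3.58.1 (R 4.3.3) with a mean-variance trend, over 12 libraries for construct and rigidity and 9 for the inhibitors. Fold changes are on this scale and understate those of low genes. P-values are two-sided and adjusted by Benjamini-Hochberg over all tested genes, and a call needs an adjusted p under 0.05 and a 2-fold difference. For the interaction it needs a Bonferroni p under 0.05. An exact permutation test of 3 against 3 libraries cannot go below p = 0.1 and was not used. Depth was taken from the step between low values, and the intervals cover the spread between libraries.

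The 10 genes and the lists of related genes were chosen with earlier results of these data known. In each list those called or with the smallest p of a comparison were named. Tll1, Tll2, Atp7a and the substrates by class were named after their values were seen. Groups came from the labels. The column numbered 35 was taken as library 34, since its heading equals the source name of that library alone. A block on the runs, other filters, pseudocounts, normalizations, weights and tests, and each library left out were the alternatives. The fit of all 18 libraries with the block and those without libraries 3, 7 and 8, the lists without the first run, and the 10 genes and the lists without the third, were chosen after seeing the data. A member was given a direction where its difference exceeded 1 SE. The test was checked on simulated data in which the libraries were drawn independently and shared no differences between runs. The check therefore does not cover such differences. One gene that the rule on likeness names is not reported here.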

Additional observations from a re-analysis of the deposited data

Results flagged for a closer look

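Loxl4 lay on different sides of the untreated cells with the 2 inhibitors. In each run the library with Y27 lay below the untreated library and the library with blebbistatin above it, by -22.0% to -4.49% and by 2.51% to 51.3%. The 2 inhibitors share the untreated libraries. The direct difference of Y27 from blebbistatin was -0.52 on the log2 scale (SE 0.35, limma adjusted p = 1), -0.31 without the third run and its library 34 and 0.12 with library 34 counted as Y27. The highest Loxl4 signal of all 18 libraries, 3032, was that of library 34, whose labels contradict each other.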

How the results depend on the processing

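None of the 10 genes was called under any alternative run. Over all 100 member comparisons 1760 of 1990 recomputed values kept the sign of the main value. The alternatives reuse the same libraries, and larger differences keep their sign more easily, so kept signs are no independent support. Of the 100 comparisons 32 exceeded 1 SE, a limit for which the share over all genes is not given. Of the recomputed values of these 32, 622 of 626 kept their sign. The exceptions were Plod1 with blebbistatin, at -0.00452 with array weights and -0.00916 without libraries 3, 7 and 8 (-0.00916 to 0.27 with single libraries left out), and Loxl4 between the inhibitors, at 0.12 with library 34 counted with Y27. Counts of members whose groups do not overlap moved most where groups of 2 were left. For any gene, groups of 2 libraries are apart more easily than groups of 3. The counts below stand without the share over all genes and are not a result about the members. Without the first run they were 3 for SUN1L on 1 kPa, 2 for SUN1L on 308 kPa, 2 for rigidity in KDEL and 4 in SUN1L cells, 5 for Y27, 1 for blebbistatin and 5 between the inhibitors. Without libraries 3, 7 and 8 they were 2, 2, 1 and 4 for the first 4 of these and 1 for blebbistatin. With library 34 left out they were 2 for blebbistatin and 3 between the inhibitors; with it counted as Y27, 1 for Y27, 2 for blebbistatin and 2 between the inhibitors. Quantile normalization gave 1 for Y27. Over all genes, the calls for SUN1L were 14 on 1 kPa (1 to 630 under the alternatives), 10 on 308 kPa (2 to 353) and 29 over both (10 to 68). The highest counts of the first 2, and the 308 and 197 calls for rigidity in KDEL and SUN1L cells, 554 for Y27, 531 for blebbistatin and 258 between the inhibitors in place of 0, came from the z-test of proportions, which takes no account of the spread between libraries. The lowest SUN1L counts came without the first run. No paired analysis was possible because the labels number no replicates, other than that by runs of serial numbers, whose block called no member. Depth limits Loxl2, Adamts3, Col2a1, Eln, Leprel1, Colgalt2 and the other transglutaminases.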
